A study of Sorghum bicolor with 5 samples.

Results

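Among the genes expressed in young sorghum leaves, 200 were singled out because their transcript level differed most between 3 plants of the same line. The 3 plants, Epi15_P1, Epi15_P2 and Epi15_P3, belong to Epi15, the slower-growing line that the study calls epi-F3 low. Levels are in CPM, the count of a gene per 1000000 counts in genes of that library. Of 35567 gene rows, 11490 had a mean of at least 10 CPM over the Epi15 plants, and the members are the 200 of these with the largest ratio of highest to lowest Epi15 plant, with 0.1 CPM added to each. The values of these 3 libraries therefore chose the members, and are described without a test. The 2 plants of Epi68, the faster-growing line called epi-F3 high (Epi68_P1 and Epi68_P3), had no part in the choice and show where the same genes lay in other plants.

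Both lines are in the Tx430 genetic background, which carries the *dw3* dwarfing allele, and descend from crosses of Tx430 with transgene-free progeny of plants in which *MSH1* had been suppressed by RNA interference. *MSH1* encodes a nuclear-encoded protein of plastids and mitochondria, and its suppression gives heritable changes in growth that the study presumes to be non-genetic. All plants were raised in a greenhouse (28°C in the light, 22°C in the dark, 14-h days) and each library came from young leaf of 1 plant aged 4 weeks. Each line is a single selected line, and no wild-type plant was analysed here, so a spread between Epi15 plants cannot be set against that of unmodified Tx430.

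Transcript levels in leaves are set gene by gene, and genes that respond to the surroundings are known to differ more between plants than housekeeping genes. Pathogenesis-related proteins, such as chitinases, osmotin-like (thaumatin-like) proteins and barwin-type proteins, are the classic inducible set of plant leaves: they accumulate during infection or wounding, and several act on fungal cell walls or membranes. In whole leaves, fewer cells of a type and less RNA per cell cannot be told apart.

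The libraries held 48372266 to 68979436 counts in genes. The members took 1.72% of the counts in Epi15_P1, 1.09% in Epi15_P2, 3.21% in Epi15_P3, 1.11% in Epi68_P1 and 2.73% in Epi68_P3. Epi15_P3 and Epi68_P3 thus gave the members the largest share, and Epi15_P2 and Epi68_P1 the smallest. The number of genes with at least 1 count followed a similar order, at 23068, 22392, 24364, 22302 and 24694 in the same 5 libraries, and its part in the result was not tested. Depth did not, since the deepest library was Epi15_P1. Reads in no gene were most frequent in Epi68_P1, at 7.07%, against 3.77 to 5.37% in the other 4 libraries. As a check of the tissue, both genes paired with chlorophyll a-b binding proteins in the study's homolog table were present in every plant, with summed levels of 1695 to 3481 CPM in Epi15 and 981 and 1802 CPM in Epi68. The 14 genes of that table with marker names of dividing cells (MCM, histone and cyclin genes) summed to 55.9, 31.9 and 53.9 CPM in the 3 Epi15 plants, 33.0 CPM in Epi68_P1 and 451 CPM in Epi68_P3, none of them at 0 in any plant. The study listed the genes of that table for a difference between the lines, so both sums follow in part from that list. The part of the dividing-cell genes in the results for Epi68_P3 was not tested.

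The ratio between the highest and the lowest Epi15 plant ran from 3.03 to 52.1 among the members, with a median of 3.82, against a median of 1.298 over all 11490 genes. In 86 members it was at least 4, and in 14 at least 10. Counting error was small beside these ratios. The fewest counts of a member in its lowest Epi15 plant were 27, and the lower 95% Clopper-Pearson bound of the plain CPM ratio was at least 2.73 in every member. Such bounds cover counting error only. The members were expressed at lower levels than most genes above the floor, with a median of 21.2 CPM over the Epi15 plants against 40.1 CPM, and 95 of them lay between 10 and 20 CPM. Still, 29 members had a mean of at least 100 CPM, and 6 of at least 1000 CPM. The choice ended in a dense part of the ranking. Just inside it, *SORBI_3001G517900*, *SORBI_3009G070700* and *SORBI_3002G383400* had ratios of 3.038, 3.037 and 3.034, and just outside it *SORBI_3006G211300* and *SORBI_3007G145000*, the latter paired with a phosphoglycerate dehydrogenase of serine synthesis, had ratios of 3.032 and 3.025.

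Names of genes come from the Arabidopsis homologs that the study lists for 1089 sorghum genes, and 25 members are among them. The study listed those genes for a difference between the lines, so the named members are not a fair sample of the 200. The other 175 members carry no name in the sources used here and are given by locus tag.

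The Epi15 plants were unequally often the extreme plant, that is, the one farther from the middle plant on a log2 scale. By this measure Epi15_P3 stood apart as the high plant in 97 members, Epi15_P2 as the low plant in 46 and Epi15_P1 as the high plant in 39. Epi15_P3 was the low plant in 12 members, Epi15_P1 the low plant in 4 and Epi15_P2 the high plant in 2. Over all 11490 genes the same classes held 13.6%, 13.02%, 21.7%, 30.1%, 8.11% and 13.5%. Epi15_P3 was therefore the high plant in 48.5% of the members, while among all genes its most frequent place was that of the low plant. The shares over all genes rest on plain CPM and were not computed under other scalings. In 114 members (57%) the order was Epi15_P3, Epi15_P1, Epi15_P2 from high to low, an order held by 15.4% of all genes. The summed level of the 2 chlorophyll a-b binding genes, none of them a member, was also highest in Epi15_P3, and its part in the result was not tested. A further 33 members had the order Epi15_P1, Epi15_P3, Epi15_P2, and 29 the order Epi15_P1, Epi15_P2, Epi15_P3. The remaining 24 members were divided over the other 3 orders.

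**Figure D1:**
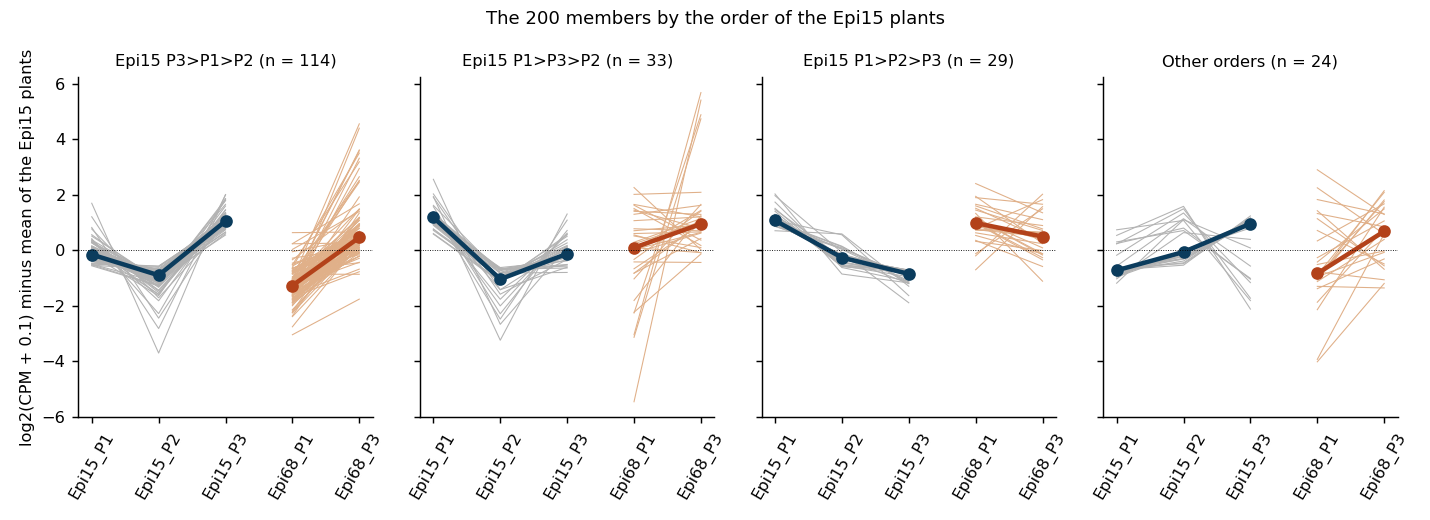
Each thin line is 1 member, plotted as log2(CPM + 0.1) minus its mean over the 3 Epi15 plants, for the Epi15 plants (grey) and the Epi68 plants (light brown), with medians as thick lines and 1 panel per order of the Epi15 plants. In the 114 members of the largest panel the median of Epi68_P1 lay at -1.27 and that of Epi68_P3 at 0.46.

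The genes with the order Epi15_P3, Epi15_P1, Epi15_P2 moved together in the Epi68 plants as well, which were not used to choose them. In 113 of these 114 members Epi68_P3 was higher than Epi68_P1, against 80.8% of the 1774 genes that have this order. The median fold of Epi68_P3 over Epi68_P1 was 3.56 in the members and 1.46 in all genes of the order. Epi68_P1 lay below even the lowest Epi15 plant in 86 of the 114 (75.4%, against 47.4% of all genes of the order). Epi68_P3 lay between Epi15_P1 and Epi15_P3 in 81 (71.1%, against 28.2%) and above Epi15_P3 in 22 (19.3%, against 49.8%). The rule took genes with Epi15_P3 far above the others, so fewer values above it and more between follow in part from the choice. With 1 library per plant and 2 Epi68 plants, these values are descriptions of those plants.

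The most abundant genes of this kind had the same order, with gaps both above and below the median of the group. *SORBI_3010G241000* stood at 1279, 825 and 3830 CPM in Epi15_P1, Epi15_P2 and Epi15_P3, and at 432 and 2236 CPM in Epi68_P1 and Epi68_P3. *SORBI_3002G384400* stood at 1339, 903 and 3735 CPM in Epi15 and at 450 and 1556 CPM in Epi68. In both genes Epi68_P1 was the lowest of the 5 plants and Epi68_P3 came second only to Epi15_P3. *SORBI_3004G056900* stood at 1054, 850 and 2824 CPM in Epi15 and 608 and 1863 CPM in Epi68, and *SORBI_3001G070500* at 1228, 786 and 2629 CPM in Epi15 and 448 and 1396 CPM in Epi68. *SORBI_3009G234600* had the widest gap between the Epi68 plants in this set, with 634, 313 and 1311 CPM in Epi15 against 124 and 1452 CPM in Epi68. Together the 10 members with the highest mean took 0.844, 0.634 and 2.11% of all counts in the Epi15 plants and 0.457 and 1.31% in the Epi68 plants.

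**Figure D2:**
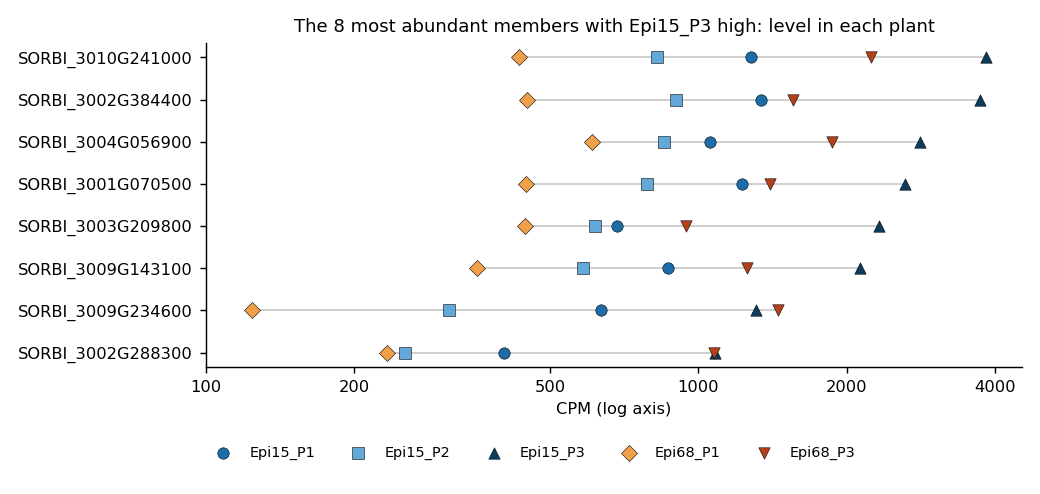
Levels in CPM (log axis) of the 8 most abundant members in which Epi15_P3 was the high plant, with 1 symbol per plant. In each of the 8 genes Epi68_P1 is the lowest plant, Epi15_P2 the next and Epi15_P1 the third.

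Named genes in which Epi15_P3 was the high plant have varied roles. *THI1*, the thiazole synthase of thiamine synthesis in the chloroplast, stood at 353, 330 and 1021 CPM in Epi15 and at 209 and 422 CPM in Epi68 (*SORBI_3003G191000*). Only Epi15_P3 stood apart, since the other 4 plants kept between 209 and 422 CPM. Proteins of the mTERF family bind organelle nucleic acids and take part in organelle gene expression, and 2 members are paired with such proteins. *SORBI_3001G066600* stood at 20.2, 12.1 and 48.6 CPM in Epi15 and 7.63 and 19.8 CPM in Epi68, and *SORBI_3004G235700* at 6.87, 4.97 and 18.7 CPM in Epi15 and 3.45 and 6.37 CPM in Epi68. For both, Epi15_P3 was highest and Epi68_P1 lowest. *NAKR2*, a heavy-metal-associated domain protein named after a sodium and potassium phenotype of its Arabidopsis relative, stood at 29.4, 20.6 and 74.7 CPM in Epi15 and 11.04 and 20.9 CPM in Epi68 (*SORBI_3001G035800*). *KCR1*, a reductase of very-long-chain fatty acid synthesis, stood at 10.5, 7.71 and 26.0 CPM in Epi15 and 7.03 and 7.01 CPM in Epi68 (*SORBI_3010G124900*). *CYP78A9*, a cytochrome P450 of a family that affects organ size in Arabidopsis, stood at 6.02, 8.46 and 22.4 CPM in Epi15 and 6.06 and 4.96 CPM in Epi68 (*SORBI_3002G272700*). In *KCR1* and *CYP78A9* the Epi68 plants were close to each other, unlike most genes with Epi15_P3 high.

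Genes of pathogenesis-related proteins made up most of the named members in which Epi15_P2 was the low plant, and they were by far highest in Epi68_P3. Of the 9 named genes of that class, 6 are paired with such proteins, and the members of the class beyond these 9 carry no name. In 40 of its 46 members Epi68_P3 was above Epi68_P1 (87.0%, against 75.3% of the 1496 genes of the class). Epi68_P3 lay above the Epi15 range in 17 and within it in 29, against 905 and 452 of those genes. Fewer values above a wide range follow in part from the choice. The named *UGT83A1* stood at 13.4, 6.26 and 24.9 CPM in Epi15 and at 4.16 and 7.97 CPM in Epi68 (*SORBI_3001G084600*). Names come from genes that the study listed for a difference between the lines. A gap between Epi15 and Epi68 plants in named genes therefore follows in part from that list. *HEL*, a hevein-like chitin-binding protein, stood at 36.9, 2.43 and 29.8 CPM in Epi15_P1, Epi15_P2 and Epi15_P3, and at 1.51 and 374 CPM in Epi68_P1 and Epi68_P3 (*SORBI_3005G169200*). A barwin-related gene, *SORBI_3010G240400*, stood at 22.5, 1.46 and 12.4 CPM in Epi15 and at 0.827 and 389 CPM in Epi68. *CHIB1*, an acidic endochitinase, stood at 41.4, 9.003 and 87.0 CPM in Epi15 and at 14.1 and 384 CPM in Epi68 (*SORBI_3003G244600*). In *HEL*, the barwin-related gene and *CHIB1*, Epi15_P2 and Epi68_P1 were the low plants. In these genes Epi15_P1 and Epi15_P3 lay between, and Epi68_P3 exceeded every other plant.

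Osmotin-like proteins are thaumatin-like proteins that permeabilise fungal membranes, and 3 members are paired with Arabidopsis *OSM34*. *SORBI_3008G182800* stood at 90.7, 8.58 and 53.1 CPM in Epi15 and at 7.17 and 1020 CPM in Epi68. *SORBI_3008G182900* stood at 76.4, 22.7 and 142 CPM in Epi15 and at 23.3 and 624 CPM in Epi68. *SORBI_3002G351400*, on another chromosome, stood at 21.6, 1.63 and 22.1 CPM in Epi15 and at 4.44 and 220 CPM in Epi68. All 3 were lowest in Epi15_P2 or Epi68_P1 and highest in Epi68_P3. The homolog table pairs 2 more genes with *OSM34*, which were not members because their Epi15 means were under 10 CPM. *SORBI_3001G145700* stood at 10.96, 1.498 and 16.1 CPM in Epi15 and 0.765 and 167 CPM in Epi68, and *SORBI_3008G182600* at 11.3, 0.136 and 3.53 CPM in Epi15 and 0 and 178 CPM in Epi68. Only uniquely mapped reads were counted, so where these related genes share sequence their separate levels are uncertain. Epi68_P3 stood above Epi68_P1 by 26.8 to 142 times in the 3 members, with a counting interval for *SORBI_3008G182800* of 128 to 158 (95%, Clopper-Pearson).

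**Figure D3:**
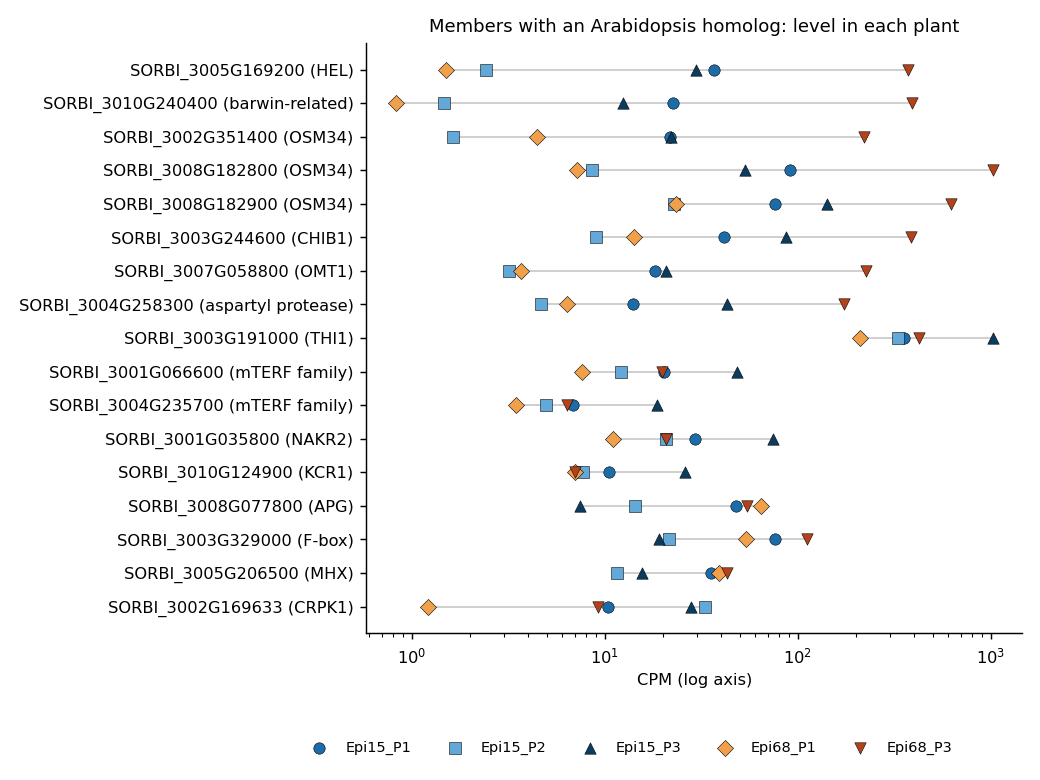
Levels in CPM (log axis) of 17 members that are paired with an Arabidopsis gene, with 1 symbol per plant and a line from the lowest to the highest plant. In the upper 8 genes Epi68_P3 is the highest plant and Epi15_P2 and Epi68_P1 the lowest pair, while in the next 5 Epi15_P3 is the highest.

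Other genes shared this pattern. *OMT1*, an O-methyltransferase of phenylpropanoid and flavone methylation, stood at 18.3, 3.20 and 20.6 CPM in Epi15 and at 3.66 and 227 CPM in Epi68 (*SORBI_3007G058800*). An aspartyl protease gene, *SORBI_3004G258300*, stood at 14.0, 4.66 and 42.8 CPM in Epi15 and at 6.35 and 174 CPM in Epi68. Without a name, *SORBI_3008G183300* had 1379 counts (19.99 CPM) in Epi15_P1, 27 (0.46 CPM) in Epi15_P2, 834 (12.9 CPM) in Epi15_P3, 1 count in Epi68_P1 and 13268 (223 CPM) in Epi68_P3. The plain ratio of the Epi68 plants was 10788 for this gene, with a counting interval of 1936 to 426127 because it rests on that single count. The gene with the largest ratio among the Epi15 plants, *SORBI_3010G020200*, stood at 55.5, 1.22 and 68.9 CPM in Epi15 and at 5.995 and 132 CPM in Epi68. The next by that ratio, *SORBI_3007G154800*, went against the pattern, since Epi68_P1 was not low. It stood at 46.7, 1.16 and 8.49 CPM in Epi15 and at 32.0 and 33.7 CPM in Epi68. Over all members, Epi15_P2 and Epi68_P1 both lay below each of the other 3 plants in 122 (61%), as they did in 15.1% of the 11490 genes. The place of Epi15_P2 among the Epi15 plants comes from values the rule used, so the gap between these shares is in part set by the choice.

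Genes with a general word for defence in their homolog's description did not all vary like this. Of 41 such genes in the homolog table, 8 reached 10 CPM in Epi15 and 2 of these were members, the barwin-related gene and *CHIB1*. The other 6 are paired with intracellular or membrane receptors of disease resistance and with *WRKY2*, a transcription factor, and had Epi15 ratios of 1.15 to 1.99. *RPM1*, a receptor that guards another plant protein in Arabidopsis, stood at 153, 169 and 134 CPM in Epi15 and 139 and 91.5 CPM in Epi68 (*SORBI_3005G094001*). Genes of the list below the floor went either way. *PR1* stood at 6.70, 0.102 and 4.22 CPM in Epi15 and at 0 and 144 CPM in Epi68 (*SORBI_3002G023300*). *WRKY51* stood at 1.13, 0.102 and 1.29 CPM in Epi15 and at 0 and 20.9 CPM in Epi68 (*SORBI_3003G276000*). Another gene paired with *RPM1* stood at 3.68, 9.65 and 6.08 CPM in Epi15 and at 2.54 and 3.95 CPM in Epi68 (*SORBI_3008G117000*). Of the other 16 lists of genes by description, secondary metabolism held 2 members among 5 genes above the floor, lipid and wax 1 among 6 and water and cold 1 among 4. The remaining 13 lists held 0 members, among 60 genes above the floor in all, and since they hold only genes of the homolog table this says little of these processes.

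The 39 members in which Epi15_P1 was the high plant are next. In 32 of them (82.1%) both Epi68 plants lay above both Epi15_P2 and Epi15_P3, against 59.6% of the 2495 genes of that class. The rule took genes in which those Epi15 plants were low, so this excess follows in part from the choice. Only 15 of the 39 were higher in Epi68_P3 than in Epi68_P1, and the median fold of Epi68_P1 over Epi68_P3 was 1.19. *SORBI_3002G376100* stood at 222, 40.9 and 41.5 CPM in Epi15 and at 227 and 166 CPM in Epi68, so that Epi15_P1 and the Epi68 plants were alike and the other Epi15 plants low. *SORBI_3004G313100* stood at 172, 15.7 and 27.5 CPM in Epi15 and at 103 and 129 CPM in Epi68. *APG*, a GDSL esterase or lipase, stood at 47.7, 14.3 and 7.45 CPM in Epi15 and at 64.3 and 54.5 CPM in Epi68 (*SORBI_3008G077800*). *MHX*, a vacuolar exchanger of magnesium and zinc for protons, stood at 35.5, 11.5 and 15.7 CPM in Epi15 and at 39.0 and 42.9 CPM in Epi68 (*SORBI_3005G206500*). In *APG* and *MHX* both Epi68 plants were even above Epi15_P1. *SORBI_3001G164100* went against the class, at 136, 11.98 and 28.6 CPM in Epi15 and only 7.61 and 32.9 CPM in Epi68.

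Where Epi15_P1 was highest and Epi15_P3 lowest, the direction between the Epi68 plants was the reverse of that in the largest group. Epi68_P1 was the higher plant in 25 of these 29 members, against 48.6% of the 3512 genes of that order. Across all orders, 169 members (84.5%) had the same direction from plant 1 to plant 3 in Epi68 as in Epi15, against 54.8% of all genes above the floor. Whether plants with the same number share anything beyond it is not known from the labels.

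**Figure D4:**
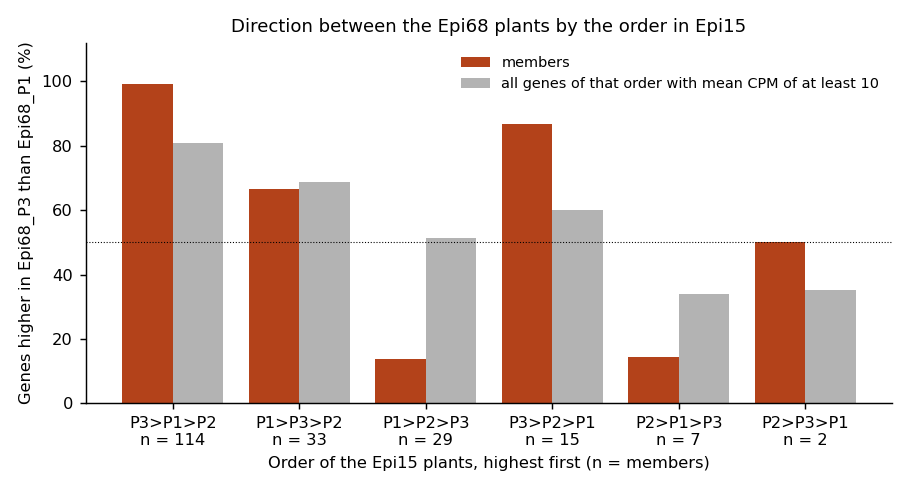
Share of genes (%) higher in Epi68_P3 than in Epi68_P1, for each order of the Epi15 plants from high to low, in the members (brown) and in all genes of that order with at least 10 CPM (grey). The share of members is 99.1% for Epi15_P3, Epi15_P1, Epi15_P2 and 13.8% for Epi15_P1, Epi15_P2, Epi15_P3.

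Few members had Epi15_P3 as the low plant or Epi15_P2 as the high plant, and they include the non-coding RNAs. Of the 200 members 3 have identifiers of non-coding RNA genes, which number 4 among the 11490 genes. *ENSRNA049470939* stood at 600 CPM in Epi15_P1, 882 in Epi15_P2 and 246 in Epi15_P3, and at 1268 and 911 CPM in Epi68. *ENSRNA049471137* stood at 15.7, 32.5 and 2.42 CPM in Epi15 and at 38.6 and 26.9 CPM in Epi68. In both, the Epi68 plants were far above Epi15_P3. The third, *ENSRNA049485572*, stood at 19.96, 25.2 and 3.33 CPM in Epi15 and at 4.80 and 4.61 CPM in Epi68, so that here both Epi68 plants were close to Epi15_P3. All 3 were lowest in Epi15_P3 among the Epi15 plants, whereas most members were highest there. A gene paired with a plastid-encoded Arabidopsis gene, *SORBI_3003G169100*, also had Epi15_P3 as the low plant, with 22.5, 29.9 and 9.005 CPM in Epi15 and 137 and 44.8 CPM in Epi68. *SORBI_3004G303500* stood at 125, 299 and 32.1 CPM in Epi15 and at 505 and 159 CPM in Epi68, nearly a mirror image of the largest group. *SORBI_3001G222700* had Epi15_P2 as the high plant, with 7.52, 21.8 and 3.75 CPM in Epi15 and 23.1 and 5.28 CPM in Epi68. The other member with Epi15_P2 high, *SORBI_3006G029550*, had the opposite direction in Epi68, with 16.3, 53.3 and 16.3 CPM in Epi15 and 6.55 and 41.5 CPM in Epi68.

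Genes that varied among the Epi15 plants also varied between the Epi68 plants. The median fold between the Epi68 plants was 2.98 in the members and 1.26 over all 11490 genes. In 67 members (33.5%) the Epi68 plants were at least 4-fold apart, against a background of 1.28% of all genes above the floor and 0.709% of those that were not members. Epi68_P3 was the higher plant in 64 of them (background 1.17%) and Epi68_P1 in 3 (background 0.113%). A 2-fold gap was found in 143 members (background 9.6%), with Epi68_P3 higher in 126 (background 6.84%) and Epi68_P1 in 17 (background 2.76%). Within the 200 members the 4-fold share was similar at both levels of expression. It was 34.7% in members between 10 and 20 CPM and 32.4% in those above, against 2.72% and 0.84% of all genes at these levels. With members chosen again it was 42.5% at a floor of 5 CPM and 23.5% at a floor of 20 CPM. Along the ranking by Epi15 ratio, the median Epi68 fold was 2.98 in the 200 members, 2.21 in the next 200 genes, 1.75 in ranks 401 to 600, 1.43 in ranks 1001 to 1200 and 1.19 in ranks 6001 to 6200. When the genes were chosen on Epi15_P1 and Epi15_P2 alone, 18% were at least 4-fold apart in Epi68. As there were 2 Epi68 plants, all folds between them compare 1 library with 1 library and no test was made.

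**Figure D5:**
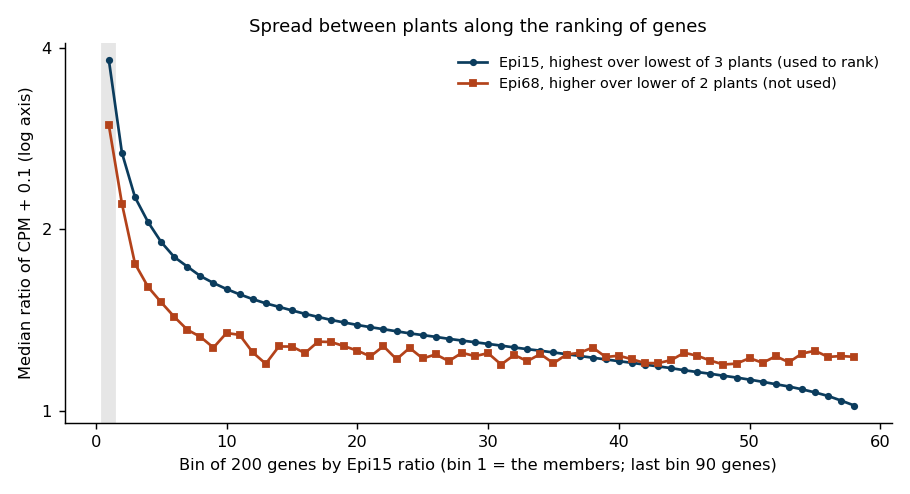
Median ratio of CPM + 0.1 (log axis) in bins of 200 genes ordered by the Epi15 ratio, for the highest over the lowest of the 3 Epi15 plants, which set the order, and for the higher over the lower of the 2 Epi68 plants, which did not. The shaded bin holds the members, with medians of 3.82 and 2.98.

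The largest gaps between the Epi68 plants included pathogenesis-related genes described above, along with other genes. In 21 members the fold was at least 10 (background 0.226%), with Epi68_P3 the higher plant in all 21. Genes without a name were among them, such as *SORBI_3010G020200* and *SORBI_3009G234600*, with folds of 21.7 and 11.7. Of the 6 members with the largest fold of Epi68_P3 over Epi68_P1, the 5 named genes are the barwin-related gene, *HEL*, *OMT1* and the *OSM34* genes *SORBI_3008G182800* and *SORBI_3002G351400*, and the other is *SORBI_3008G183300*. In the opposite direction the gaps were smaller. *SORBI_3007G206200* stood at 23.3, 10.9 and 6.85 CPM in Epi15 and at 30.4 and 5.51 CPM in Epi68, and *SORBI_3003G246900* at 68.6, 8.83 and 45.3 CPM in Epi15 and at 145 and 30.6 CPM in Epi68. The plain CPM ratios of the Epi68 plants were 5.51 and 4.73 for these genes.

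The 2 Epi68 plants seldom lay on the same side of the Epi15 plants. Epi68_P1 lay below the Epi15 range in 104 members, within it in 72 and above it in 24, against 22.1, 42.3 and 35.6% of all 11490 genes. Epi68_P3 lay below the range in 5 members, within it in 148 and above it in 47, against 20.2, 39.8 and 39.98% of all genes. Both Epi68 plants lay above the range in 5 members and below it in 3, against backgrounds of 14.1% and 4.06% of the 11490 genes. As the rule took genes with a wide Epi15 range, fewer values outside it follow from the choice. The share of 4% on either side was 3% when members were chosen without Epi15_P1, 8.5% without Epi15_P2 and 9% without Epi15_P3. These choices take the range from 2 Epi15 plants and have no background share, so they cannot show how much the choice matters. The 5 are *SORBI_3003G169100*, *SORBI_3003G007800*, *APG*, *MHX* and *ENSRNA049470939*. The 3 are *SORBI_3001G291300*, *KCR1* and *CRPK1*, a kinase that restrains cold signalling in Arabidopsis, which stood at 10.4, 33.0 and 27.8 CPM in Epi15 and at 1.22 and 9.21 CPM in Epi68 (*SORBI_3002G169633*).

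In the comparison of the lines, whether a member was called depended on the fit. All 23098 genes with at least 10 counts were compared with edgeR's quasi-likelihood test, with the thresholds of the study (adjusted p no higher than 0.1, log2 fold change of 0.5 or more in either direction), which called 0.00433% of them and 0 members. Of the members 7 had an unadjusted p under 0.05, against 3.22% of all genes. The study described 3 plants per line and reported far more genes between the lines at these thresholds. Only 2 Epi68 plants were available here. limma-voom called 0 members, while edgeR's exact test (background 0.221%) and DESeq2 (background 0.294%) called 1 each, *SORBI_3001G291300*. With the plant number as a block in the quasi-likelihood test (background 0.303%), 15 members were called, 3 higher and 12 lower in Epi68. However, the labels do not say that plants of the same number belong together. That fit also leaves Epi15_P2 alone in its block, so this plant adds nothing to the difference between the lines. *SORBI_3001G291300* stood at 70.6, 65.0 and 215 CPM in Epi15 and at 12.03 and 29.4 CPM in Epi68, so that each Epi68 plant was below every Epi15 plant. Its log2 fold change was -2.64 (standard error 0.64), with an adjusted p of 0.999 from the quasi-likelihood test, 0.0368 from the exact test and 0.00308 from DESeq2, and between 0.00122 and 1.00 over all alternatives. The median log2 fold change of the members was -0.12, against 0.02 for all genes. Without Epi15_P1, Epi15_P2 and Epi15_P3 in turn it was -0.25, -0.44 and 0.23, against 0.01, 0.02 and 0.05 for all genes. Without Epi68_P1 and Epi68_P3 in turn it was 0.12 and -1.29, against -0.001 and -0.03. The spread among the Epi15 plants that chose the members also enters this test, so the number of calls depends in part on the choice.

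The members came from all 10 chromosomes by their locus tags, with 1.01 to 2.29% of the genes above the floor on each. Chromosomes 1, 2 and 3 held 45, 34 and 34 of them. In 8 places 2 or 3 members were direct neighbours among the genes above the floor, 17 members in all. In 5 of the 8 places all neighbours had the same order of the Epi15 plants, and in 7 the same extreme plant in the same direction. No background share was set beside these counts. On chromosome 8, *SORBI_3008G182800* and *SORBI_3008G182900*, both paired with *OSM34*, were followed by *SORBI_3008G183300*. On chromosome 5, *HEL* was next to *SORBI_3005G169400*, which stood at 26.5, 2.04 and 59.98 CPM in Epi15 and at 8.31 and 84.9 CPM in Epi68. On chromosome 1, *SORBI_3001G301500* and *SORBI_3001G301600* were alike in all plants, with 26.4, 6.48 and 6.71 CPM and 28.1, 7.57 and 8.03 CPM in Epi15, and 10.7 and 20.1 CPM and 14.7 and 26.5 CPM in Epi68. Neighbours did not always match: *SORBI_3001G291500* stood at 45.3, 82.5 and 185 CPM in Epi15 and *SORBI_3001G291600* at 38.3, 11.6 and 39.3 CPM, though both were highest in Epi68_P3, at 391 and 237 CPM. Reads of similar neighbouring genes may be divided unevenly by unique mapping, and this was not tested.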

How the data were processed

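Raw counts per gene were deposited by the authors, who used TrimGalore! 0.4.1 for trimming, STAR 2.7.3a for alignment to sorghum NCBIv3 with unique reads only, and QoRTs 1.3.0 for counting at a minimum mapping quality of 25. The strand setting is not given in the sources used here. The 5 summary lines of each file were left out. They held 3.77 to 7.07% of reads in no gene and 0.445 to 0.557% of ambiguous reads. CPM were computed from the total of gene rows. Members follow the rule given at the start of the report, and the members and lists were chosen with earlier results of these data known. The lines were compared with edgeR 4.0.16 in R 4.3.3 (TMM, quasi-likelihood test, Benjamini-Hochberg adjustment over all genes with at least 10 counts), after the script was tested on simulated data. Standard errors were taken from the F statistic. Alternatives used RLE factors, DESeq2 1.42.0, limma-voom (limma 3.58.1), the exact test, no filter, a replicate block and each library left out, and for the choice of members other scalings, offsets, floors and sizes. Genes named were taken from the members with the largest ratio, the most abundant and the homolog-paired members of each class. Others were taken from those at the edges of the choice and those with the largest gaps. Not every member of these kinds is named in the text. *THI1*, the *OSM34*, *RPM1* and other defence genes that are not members, and the neighbours were chosen after their values were seen. Locus tags matched 0 entries of the RefSeq gene table, so no sequences or coordinates are given.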

Additional observations from a re-analysis of the deposited data

How the results depend on the processing

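The share of members with Epi15_P3 as the high plant (48.5%) and the share with the same direction from plant 1 to plant 3 in both lines (84.5%) kept within 1.5 times of these values under other scalings (TMM, median-of-ratios), an offset of 1 CPM, floors of 5 or 20 CPM and with 100 members. The TMM scaling chose 187 of the same genes and the floor of 20 CPM 105. The share at least 4-fold apart in Epi68 (33.5%) ranged from 18 to 34.5% when members were chosen without each Epi15 plant in turn, with the lowest value without Epi15_P3. That share was 42.5% at a floor of 5 CPM, 23.5% at a floor of 20 CPM and 43% with 100 members. The share with both Epi68 plants outside the Epi15 range on the same side (4%) was 2% at a floor of 5 CPM and 1% with 100 members, and ranged from 3 to 64% with each plant left out, since only 1 Epi68 plant remains to be counted in the highest value.

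The lines differed in 1 gene by the quasi-likelihood test. DESeq2 called 68 genes, the exact test 51, limma-voom 0, and the quasi-likelihood test 12 without a filter and 0 to 80 with each library left out. With a replicate block by plant number 70 genes were called, 15 of them members. Replicates were also numbered in order within each line, which pairs Epi15_P2 with Epi68_P3. With a block by this replicate number 7 genes were called, 0 of them members. Each of these block fits leaves an Epi15 plant alone in its block. Across genes, the deviations of same-numbered plants from their line's mean correlated at 0.02 and 0.39 by plant number and 0.02 and -0.36 by replicate number, and the 2 Epi68 deviations mirror each other, so pairing remains unknown. DESeq2 and the exact test called 1 member each. The cause of these differences was not tested. With 3 and 2 plants, 1 library each, no value here separates plant, leaf and library.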
